A study of Mus musculus with 39 samples.

Results

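DNA methylation of wild-type (WT) mouse liver was compared with that of naive WT mouse embryonic stem cells (mESC), tile by tile. A tile is a stretch of 200 bp, and the value of a tile is the share of its cytosine reads that were methylated, given here in percent. The members were all tiles with a value in both the WT liver column and the first WT column of total methylation, which numbered 220318 of the 377684 tiles in the deposited table. The p53-null columns were not used.

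The series has 39 libraries in 10 groups. Liver came from male WT mice of 16 weeks, born to parents heterozygous for p53, and gave 3 libraries of reduced representation bisulfite sequencing (RRBS). The mESC lines were derived from morulae at embryonic day 2.5 from matings of 129s-Trp53tm2Tyj/J heterozygotes, were WT, were kept in 2i medium, which holds them in the naive state, and gave 5 RRBS libraries. Oxidative RRBS (oxRRBS) of naive WT cells gave 5 more libraries, and WT cells treated with 1 uM retinoic acid (RA) for 4 days gave 5 RRBS libraries. These last groups are used below only to sort tiles or for values side by side. The labels give no sex for the lines. They describe growth on irradiated fibroblast feeders and removal of feeders for the differentiation experiments, and they do not say whether feeder DNA was present in the naive libraries. Liver is a bulk tissue, and its values are averages over all of its cell types.

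In mammals methylation sits almost only at CpG dinucleotides. CpG-dense stretches, the CpG islands of many promoters, are as a rule unmethylated in every cell type, while CpG-poor sequence is mostly methylated in somatic tissue, apart from active regulatory elements. Naive mESC in 2i are known for low methylation across the genome, and lineage commitment restores it through the de novo methyltransferases. RRBS cuts DNA with MspI and so favours CpG-rich fragments. Bisulfite reads 5-methylcytosine (5mC) together with 5-hydroxymethylcytosine (5hmC), the product of TET enzymes, and that sum is called total methylation here. oxRRBS reads 5mC alone.

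The authors deposited 1 value per group and tile, with no read counts and no values per library. Depth is therefore unknown, no value below carries an SD, an n or an interval over libraries, and no difference could be tested against the variation among mice or among lines. Tissue cannot be told apart from anything else in which the 2 sets of libraries differed, such as culture or preparation. The heading of the liver column gives the genotype only, and it was taken as liver because the liver labels name this table as their processed file. The heading of the naive column gives no cell state, and it was set against the table of single CpGs, whose headings do. Over 102872 tiles, the column taken as naive differed from the mean of the labelled naive WT CpGs by 3.81 points on average, in absolute terms, and from that of the RA-treated CpGs by 14.4 points. The liver column differed from the labelled naive CpGs by 26.7 points and from the labelled RA CpGs by 17.6 points, on the same measure, over 109148 tiles, and could not be set against a column headed as liver. Positions are on build mm9 and count from 1. No gene annotation of that build was used here, so tiles and regions are given by position, without genes or features.

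Liver was far more methylated than naive mESC. Mean total methylation over the 220318 tiles was 63.3% in liver and 29.3% in naive cells, 34.0 percentage points apart. The medians of the columns were further apart, 80.95% in liver and 29.2% in naive cells, while the median of the differences per tile was 36.1 points. At 25 points or more, 138935 tiles were higher in liver (63.1% of those compared) and 1835 were lower (0.833%). At 10 points or more the counts were 162383 and 5000, or 73.7% and 2.27%. At 50 points or more they were 67287 and 204, or 30.5% and 0.0926%. Tiles measured in only 1 of the 2 columns had means close to those of the shared tiles in liver and higher ones in naive cells. The 117488 tiles with a liver value alone averaged 62.7%, and the 26104 with a naive value alone averaged 36.8%.

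The shape of the distribution differed as well as its mean. In naive cells 59.2% of tiles lay from 20% to under 80%, and in liver 25.5% did. Tiles at 80% or more made up 51.7% of the total in liver and 1.05% in naive cells. Tiles under 5% made up 18.2% in liver and 24.8% in naive cells, so the unmethylated class was of more similar size than the methylated one. The liver column also held more exact extremes, with 8.37% of tiles listed at 100% against 0.0150% in naive cells, and 7.33% against 6.04% listed at 0. Without read counts, the number of reads behind these extremes is unknown.

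**Figure D1:**
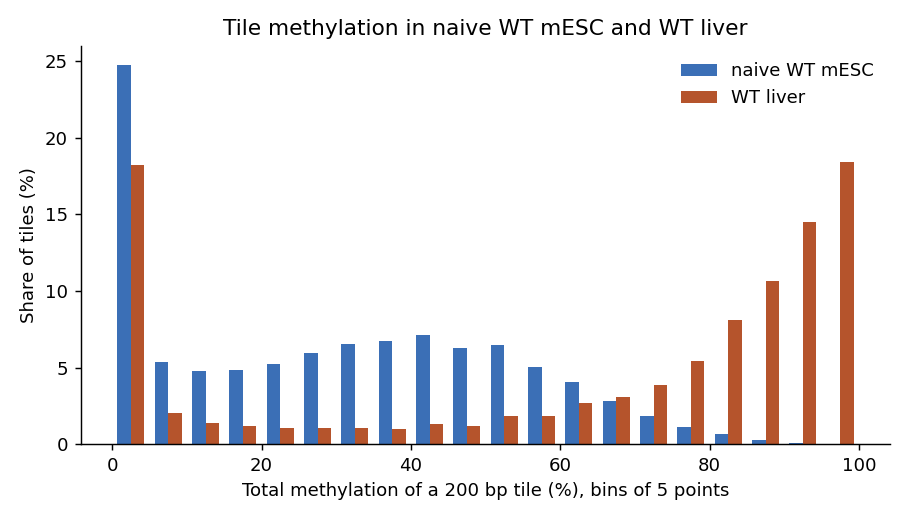
Share of the 220318 tiles (vertical axis, %) in bins of 5 points of total methylation (horizontal axis, %) for naive WT mESC (blue) and WT liver (orange). Naive tiles spread over the whole range up to about 80%, while 51.7% of liver tiles lie at 80% or more and 18.2% lie under 5%.

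Tiles that were unmethylated in naive cells mostly stayed so in liver. Of the 54558 tiles under 5% in naive cells, 38439 (70.5%) were under 5% in liver too, and 3308 (6.06%) were at 80% or more. Seen from liver, 95.7% of its 40183 tiles under 5% were also under 5% in naive cells. The next class behaved differently, since of the 32964 tiles from 5% to 20% in naive cells only 3.65% were under 5% in liver and 47.4% were at 80% or more. From there the share at 80% or more in liver went up by class, to 60.8% of tiles at 20% to 40%, 75.2% at 40% to 60% and 86.4% at 60% to 80%. The 2316 tiles already at 80% or more in naive cells were at 80% or more in liver in 89.9% of cases. These classes use the naive column itself, which also enters the difference.

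**Figure D2:**
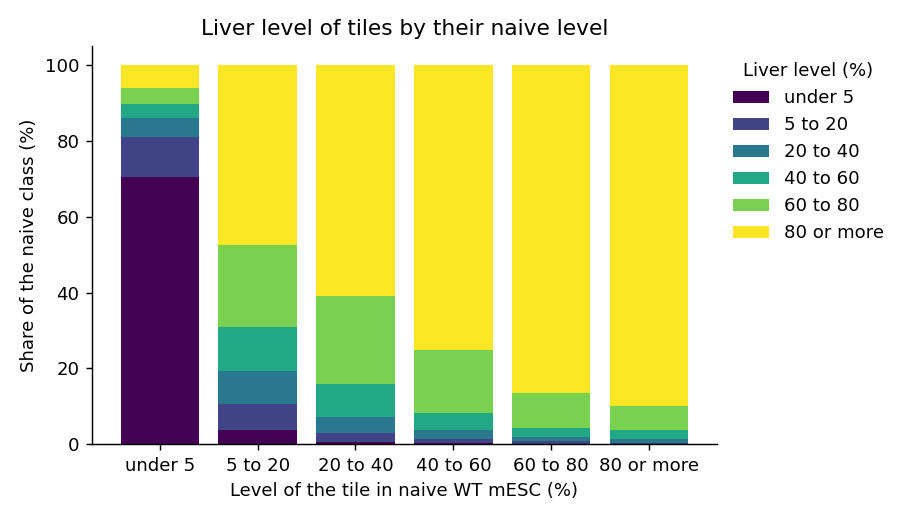
Tiles grouped by their level in naive WT mESC (horizontal axis, %), with the share of each group (vertical axis, %) that falls in each liver class (colours). The class under 5% in naive cells is mostly under 5% in liver (70.5%), and every other class has its largest share at 80% or more.

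The classes were therefore repeated on columns that do not enter the difference. By 5mC from the column taken as naive oxRRBS, tiles at 5% to 20% showed the largest mean difference among the classes, 49.95 points. It ran from 23.9% in naive cells to 73.9% in liver over 42856 tiles. Tiles under 5% 5mC averaged 4.98% in naive total methylation and 25.4% in liver, 20.4 points apart, and the 2888 tiles at 80% or more averaged 66.8% and 89.8%. By the RA-treated column, which was taken as such in the same way as the naive one, tiles at 20% to 40% led with 51.3 points, from 17.8% to 69.0% over 27181 tiles. Tiles under 5% in RA-treated cells differed by 2.81 points, from 0.624% in naive cells to 3.44% in liver over 39179 tiles, and 3.49% of them were higher in liver by 25 points or more. At 80% or more in RA-treated cells the difference was 28.8 points, from 61.1% to 89.9%. In both columns the largest difference thus lay above the lowest class and below the middle of the scale, and the smallest in the class under 5%. In the top class by 5mC, 5mC averaged 87.6% in tiles with 66.8% total methylation, which a true 5mC level cannot exceed.

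The difference also varied with CpG density. The number of CpGs that the single-CpG table holds in a tile was taken as a measure of density. The sources used here do not say how CpGs were chosen for that table, so the number may also reflect coverage. The 123786 tiles with none averaged 37.3% in naive cells and 77.0% in liver, 39.8 points apart. Tiles with 1 such CpG averaged 29.3% and 65.7%, and those with 2 averaged 18.2% and 48.7%. From 3 to 4 CpGs the levels were 7.87% and 25.6%, with a liver SD over tiles of 36.6 points and a liver median of 1.95%, so this class mixed unmethylated and methylated tiles. From 5 to 8 CpGs they were 1.29% and 5.37%. The 6378 tiles with 9 or more averaged 0.373% and 1.08%, a difference of 0.710 points, and 97.4% of them were under 5% in both. The share of tiles higher in liver by 25 points or more fell along the classes from 74.9% to 0.674%, against 63.1% of all tiles.

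Methylation rose on leaving the dense tiles, and did so more steeply in liver. Tiles that lay 400 bp from the nearest tile with 9 or more CpGs averaged 0.960% in naive cells and 4.30% in liver. At 1000 bp the levels were 5.48% and 19.11%, and at 2000 bp they were 17.7% and 46.8%. Beyond about that distance both flattened, to 23.4% and 56.3% at 5000 bp. Over 20000 bp away, where 172795 tiles lay, the means were 33.3% and 71.0%. The difference was 4.13 points at 200 to 1000 bp, 23.04 points at 1200 to 2000 bp, 31.3 points at 2200 to 4000 bp and 37.6 points over 20000 bp.

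**Figure D3:**
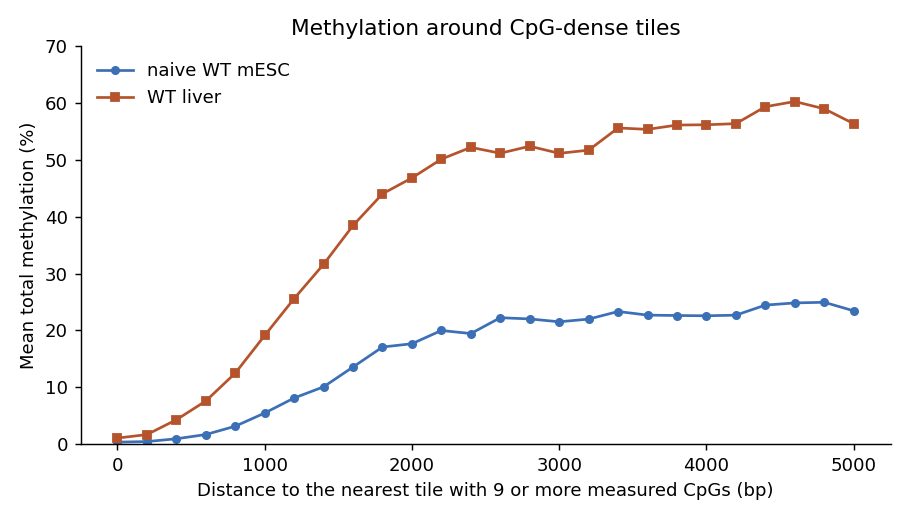
Mean total methylation (vertical axis, %) of tiles by their distance to the nearest tile with 9 or more measured CpGs (horizontal axis, bp) in naive WT mESC (blue circles) and WT liver (orange squares). Both start near 0 and separate with distance, to 17.7% and 46.8% at 2000 bp.

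A small set of dense tiles went against their class. Of the 6378 tiles with 9 or more CpGs, 43 were higher in liver by 25 points or more, 19 by 50 points or more, and 0 were lower by 25 points or more. The 5 with the largest differences were looked up after the values were seen. The first, on chromosome 8 (64028401 to 64028600, 9 CpGs), was at 0.391% in naive cells, 13.5% in RA-treated cells and 96.6% in liver. The second, on chromosome 7 (133435801 to 133436000, 13 CpGs), was at 1.31%, 4.00% and 95.1%. The tile on chromosome 6 (48388801 to 48389000, 11 CpGs) was at 0.293%, 2.998% and 89.5%. The tile on chromosome 17 (88039801 to 88040000, 9 CpGs) stood at 6.30% in naive cells, 39.0% in RA-treated cells and 93.8% in liver. The remaining one, on chromosome 11 (24064601 to 24064800, 11 CpGs), had no RA value and was at 1.08% in naive cells and 94.5% in liver. All 5 were thus at 6.30% or less in naive cells and at 89.5% or more in liver, values that the choice by difference largely sets. The 4 with an RA value were at 2.998% to 39.0% in RA-treated cells, where all dense tiles averaged 0.496%.

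The difference was present along the whole genome. Each of the 20 chromosomes that held 1000 tiles or more had the higher mean in liver, by 31.4 points on chromosome 19 to 38.1 points on chromosome X. The same was true of all 2499 windows of 1000000 bp that held 20 tiles or more, with a median of 35.5 points and a range from 11.2 to 64.7. Window means varied more in liver than in naive cells, with an SD over windows of 11.9 and 7.36 points. Windows with 20 to 49 tiles differed by 40.3 ± 7.32 points (SD over 834 windows), and windows with 200 or more by 30.8 ± 4.13 points (SD over 160 windows). Tile-poor windows were the more methylated in both, at 35.9% in naive cells and 76.2% in liver against 23.8% and 54.7% in the tile-rich ones.

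The windows of smallest difference were low in both columns. The lowest, chromosome 2 from 147000001 to 148000000, averaged 14.9% in naive cells and 26.1% in liver over 91 tiles. Chromosome 6 from 52000001 to 53000000 averaged 11.2% and 23.2% over 164 tiles, and chromosome 2 from 74000001 to 75000000 averaged 16.2% and 30.5% over 142 tiles. The other two were on chromosome 7 from 91000001 (20.6% and 34.9%) and on chromosome 2 from 180000001 (17.5% and 33.3%). The windows of largest difference had 25 to 72 tiles, and none of these was a tile with 9 or more CpGs, as in 900 of the 1722 windows with under 100 tiles (52.3%). Chromosome 1 from 68000001 to 69000000 led, with 20.5% in naive cells and 85.2% in liver over 25 tiles. It was followed by chromosome 10 from 15000001 (28.005% and 88.3%, 72 tiles), chromosome 14 from 93000001 (29.2% and 87.5%), chromosome 10 from 35000001 (29.4% and 87.2%) and chromosome 14 from 36000001 (27.8% and 85.1%). For comparison, the medians over all windows were 31.5% in naive cells and 67.9% in liver.

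**Figure D4:**
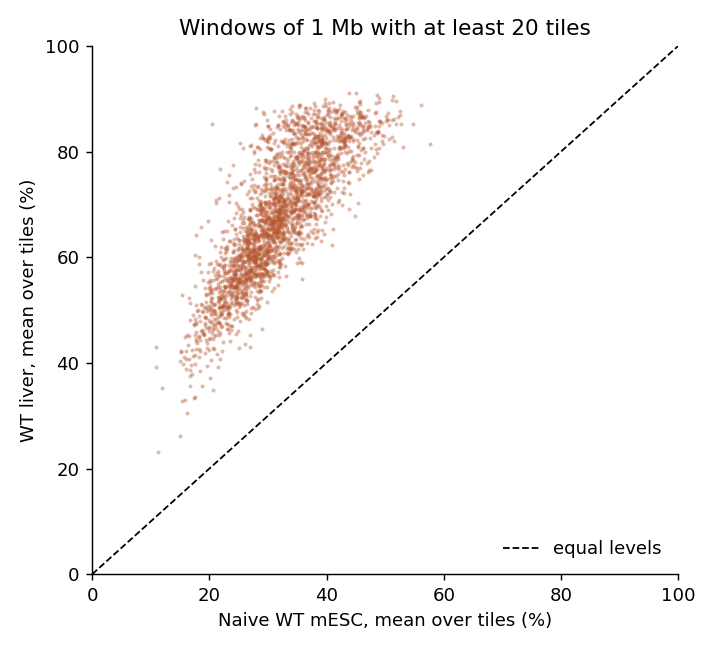
Each point is a window of 1000000 bp with at least 20 tiles, by its mean total methylation in naive WT mESC (horizontal axis, %) and in WT liver (vertical axis, %). All 2499 points lie above the dashed line of equal levels, and the spread is wider in liver.

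Chromosome X is given apart, since liver was male and the sex of the lines is not labelled. X tiles averaged 32.8% in naive cells and 70.8% in liver, and autosomal tiles 29.3% and 63.2%. The difference was 38.1 points on X and 33.9 points on autosomes, which are 4.14 points apart. With each window counting once this gap was 1.62 points. Among tiles with no CpG in the single-CpG table, X and autosomes were 2.30 points apart in the difference, with 80.4% and 76.9% in liver and 38.4% and 37.2% in naive cells. On the Y chromosome 173 tiles had a liver value and 22 a naive value, and the 20 tiles with both averaged 87.7% in liver and 34.0% in naive cells.

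Single tiles can rest on few reads, so runs of neighbouring tiles were formed. A region was a run of at least 5 tiles with both values whose starts followed each other within 1000 bp. There were 5210 regions with 32805 tiles, and their mean difference of 20.1 points was lower than the 34.0 points over all tiles. Liver was higher by 25 points or more in 1749 regions (33.6%) and lower in 3 (0.0576%). In 1934 regions every tile was higher in liver, and in 35 every tile was lower. Of the 2928 regions under 5% in naive cells, 24 were at 80% or more in liver.

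The 10 regions of largest increase went from near 0 to near full methylation. Their naive means were 0.560% to 7.93% and their liver means 90.4% to 97.1%, values that the choice by difference largely sets. In all 10 the highest naive tile lay below the lowest liver tile, which the choice by difference also largely sets. The same held for 1266 of the 5210 regions (24.3%). The region with the most tiles was on chromosome 7 (4981201 to 4983800). Its 12 tiles ran from 0.288% to 9.50% in naive cells (median 1.47%) and from 89.0% to 99.3% in liver (median 96.0%), and it averaged 18.6% in RA-treated cells. The largest mean difference, 93.9 points, was on chromosome 12 (72418401 to 72419400). There the 5 tiles stood at 0%, 4.50%, 5.36%, 3% and 1.63% in naive cells and at 100%, 94.4%, 96.4%, 97.01% and 96.3% in liver. On chromosome 8 (68234601 to 68235800) the difference was 92.4 points over 5 tiles, from a mean of 3.62% to 96.0%. The region on chromosome 6 from 17790001 to 17791000 had the lowest naive mean, 0.560%, and a liver mean of 90.4%, with liver tiles from 73.3% to 96.4%. Others lay on chromosome 13 (42278801 to 42279800, 7.29% and 97.1%), chromosome 4 (53876801 to 53878200, 2.82% and 92.5% over 7 tiles) and chromosome 5 (42579601 to 42580600, 3.22% and 92.8%). Of the last 3, the one on chromosome 8 (8620201 to 8621400) averaged 4.84% in naive cells and 94.2% in liver, and the one on chromosome 6 (48546801 to 48548200) 6.44% and 95.7%. The tenth, on chromosome X (157735601 to 157736600), averaged 7.93% and 95.5%. In RA-treated cells the 10 regions averaged 11.8% to 36.3%, over the tiles with an RA value. These means were above the naive ones, as in 4374 of all 5210 regions (83.95%). They were also below the liver means, which the choice by difference places near full methylation.

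Regions lower in liver were fewer and moved less. A region can fall by no more than its naive level, and 2928 of the 5210 regions were under 5% in naive cells. The 10 lowest had differences from -34.6 to -12.1 points, naive means of 21.5% to 51.7% and liver means of 1.85% to 27.99%. Chromosome 8, with 13951 of the 220318 tiles, held 3 of them, and it held 2 of the 10 regions of largest increase. The first, on chromosome 8 (123024201 to 123025400), had naive tiles at 60%, 45.5%, 52.7%, 44.02% and 29.03% and liver tiles at 2.94%, 19.13%, 16.2%, 13.3% and 6.67%, so that the whole liver range lay below the naive one, as in 14 of the 5210 regions (0.269%). Its RA mean was 62.1% over 4 tiles. On chromosome 6 (90416401 to 90417400) the means were 44.6% in naive cells and 18.2% in liver, with 1 of 5 tiles higher in liver. On chromosome 5 (124475201 to 124476600) they were 51.7% and 26.7%, with all 5 tiles lower in liver. The region on chromosome 6 from 114870401 to 114871600 was the other with ranges apart, from 19.2% to 38.5% in naive cells and from 0% to 3.03% in liver. The longest, on chromosome 9 (98862401 to 98865200), had 10 tiles and means of 21.5% and 6.81%, with 1 tile higher in liver.

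Only 2 of these 10 regions had tile ranges apart. The 5 not yet named had overlapping ranges. They lay on chromosome 8 (13060801 to 13062000, 40.04% in naive cells and 16.0% in liver; 124086801 to 124087800, 36.7% and 16.9%), chromosome 15 (85576201 to 85577400, 41.8% and 22.8%), chromosome 14 (26312801 to 26314000, 40.7% and 25.8%) and chromosome 9 (103128601 to 103130400, 40.04% and 27.99%). In the region on chromosome 14 naive 5mC averaged 53.8%, above its 40.7% total methylation, which a true 5mC level cannot exceed. All 10 regions averaged more in RA-treated cells than in naive cells, at 36.1% to 71.3%, over the tiles with an RA value. The same was true of 4374 of all 5210 regions (83.95%).

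**Figure D5:**
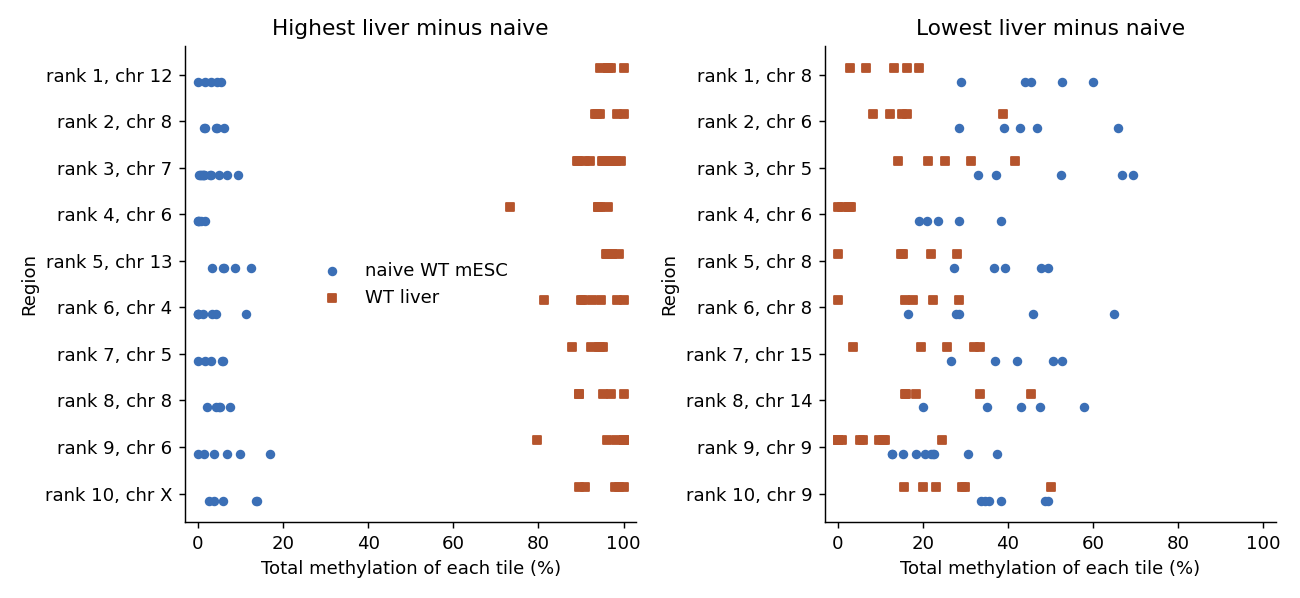
Total methylation of every tile (horizontal axis, %) in the 10 regions with the highest (left) and the 10 with the lowest (right) mean liver minus naive difference, ranked from the top with their chromosome (vertical axis). Blue circles are naive WT mESC and orange squares WT liver. Tile ranges are apart in all 10 regions on the left and in 2 of 10 on the right. Of all regions, 24.3% have the liver range above and 0.269% have it below. The regions shown were chosen by difference, which favours ranges apart.

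The 1835 tiles lower in liver by 25 points or more averaged 53.2% in naive cells and 16.3% in liver. Both values chose them and are a description. The oxRRBS libraries did not enter the choice, and 5mC in naive cells was above the liver level in 1596 of the 1835 (86.98%), against 4.28% of the tiles at 25% or more in naive cells and 9.49% of all tiles. RA-treated cells had a value for 1529 of them and averaged 63.9% there, above the liver level in 1517 (99.2%) and by 25 points or more in 1421 (92.9%). Of the tiles at 25% or more in naive cells with an RA value, 10.1% had RA above liver and 3.42% by 25 points or more. All 3 of these counts share the liver column with the choice, which was of low liver values, so how far they pass what the choice brings was not tested. A tile could be lower by this much only from 25% or more in naive cells, which held for 121280 tiles and left few dense ones. Of the lower tiles only 1 (0.0545%) had 5 or more measured CpGs. The shares were 0.119% of those 121280 and 0.477% of the tiles higher in liver by 25 points or more. Within 2000 bp of a tile with 9 or more CpGs lay 0.981% of the lower tiles, 0.533% of the 121280 and 1.35% of the higher tiles. By chromosome, their share of tiles ran from 0.345% on X to 1.26% on chromosome 19.

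Around these tiles the difference from naive cells changed with distance. Tiles that began 200 bp away averaged 43.995% in naive cells and 36.7% in liver, with 30.3% of them lower by 25 points or more, against 0.738% of all pairs of tiles at that distance. Such neighbours can share MspI fragments and reads with the tile beside them. At 600 bp the levels were 35.7% and 46.9%, so liver was the higher by 11.1 points over 132 tiles, against 21.4 points for all pairs. Of those 132 tiles 13.6% were still lower by 25 points or more, against 0.344% for all pairs. All pairs averaged 25.4% in naive cells at 200 bp and 13.4% at 600 bp, below the neighbours of the lower tiles. A tile under 25% in naive cells cannot be lower by 25 points, so these shares do not compare tiles of like naive level. At 1000 bp the difference was 26.6 points, and for all pairs of tiles at that distance it was 23.5 points. The 3308 tiles that went from under 5% in naive cells to 80% or more in liver were followed in the same way. Their neighbours at 200 bp differed by 77.96 points, against 31.7 points for all pairs, at 600 bp by 69.1 points and at 1000 bp by 54.3 points. At 2000 bp it was 40.01 points, against 28.7 points for all pairs.

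Naive 5hmC, taken as total methylation minus 5mC, was compared across liver levels, which do not enter it. In tiles at 80% or more in liver, naive cells had 41.4% total methylation and 33.6% 5mC, which leaves 7.77 points of 5hmC. In tiles at 5% to 20% in liver they had 10.6% and 7.64%, which leaves 2.98 points. In tiles under 5% in liver, 5hmC was 0.357 points of a naive total of only 1.31%, a share of 27.2%. The 5hmC level was thus higher in tiles more methylated in liver. Its share of naive total methylation was lower at 80% or more in liver, 18.8%, than at 5% to 20%, 28.1%. The same order of shares was seen among tiles of like level in RA-treated cells. At 40% to 60% in RA-treated cells, 5hmC was 30.6% of naive total methylation in the 271 tiles under 5% in liver and 20.4% in the 34065 tiles at 80% or more. At 60% to 80% in RA-treated cells the shares were 26.1% in 132 tiles and 17.4% in 44440 tiles. Naive total methylation was lower in the tiles under 5% in liver, 25.8% against 36.4% in the former class and 43.7% against 50.7% in the latter. In points of methylation, 5hmC was 7.88 and 7.43 in the former class and 11.4 and 8.81 in the latter, so within these classes the level did not follow the order seen over all tiles. A difference of separate assays carries the error of both, and with no values per library these gaps were not tested.

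The 5 single tiles of largest change each way follow. Of the increases, 108 tiles were tied at 0% in naive cells and 100% in liver, and the 5 taken by position were on chromosome 1 (118758401, 120971401 and 135565401) and chromosome 10 (42184601 and 60274001), each given by its start. The largest decrease was on chromosome 12 (8450201 to 8450400), from 83.3% in naive cells to 0% in liver, with 64.1% naive 5mC and 91.2% in RA-treated cells. Next came chromosome 4 (96304401 to 96304600), from 82.9% to 0%, with 86.3% naive 5mC. On chromosome 9 (48555001 to 48555200) the levels were 90.5% and 9.09%, on chromosome 10 (99444601 to 99444800) 83.2% and 2.78%, and on chromosome 19 (38236201 to 38236400) 78.6% and 0%. Naive 5mC, from the separate oxidised libraries, was 45.1% to 86.3% in these 5 tiles. It was above the liver value in each, as in 9.49% of all tiles. The choice was of low liver values, so how far this passes what the choice brings was not tested.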

How the data were processed

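Genomic DNA was cut with MspI, and part of the libraries was oxidised before bisulfite treatment, per the labels' protocols. Trim Galore, BSMAP, methylKit and build mm9 are named in the submitters' processing notes, with no role or version. The sources used here do not say how coverage was filtered or how libraries were merged into groups.

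The tile table holds methylation as a fraction per 200 bp, deposited by the authors as 1 value per group. The fractions were multiplied to percent. The CpG table holds whole percent values deposited by the authors for 330387 CpGs. In all, 6 value columns were used and 28 were not, among them a second WT column of the same block whose suffix is not defined in the sources used here.

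Differences are liver minus naive in percentage points, each tile counting once. No test was run, because each group has 1 value, and limma on single libraries, planned for that case, did not apply. Limits of 10, 25 and 50 points and classes at 5, 20, 40, 60 and 80% were used. The rules named the 10 regions (at least 5 tiles), 5 windows (at least 20 tiles) and 5 single tiles (at least 1000 bp apart) of largest difference each way, ties by chromosome and position. Dense tiles were named after their values were seen. Members, lists and limits were chosen with earlier results of these data known. Counting rules were tested on simulated data. Python 3.11.15, numpy 2.4.6, pandas 2.3.3 and matplotlib 3.10.9 were used.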

Additional observations from a re-analysis of the deposited data

How the results depend on the processing

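The sign of the mean difference was the same under all 7 alternatives run. It was 33.9 points on autosomes only, 33.6 on tiles that also had an RA value and 26.6 on tiles with at least 1 CpG of the CpG table. Without tiles listed at 0 or 100% it was 36.2, and with each window counting once it was 36.05. With naive 5mC as the reference it was 39.8, where liver stayed as total methylation, so the measures were unlike. With the CpG table as the naive reference it was 25.8, over the same 96532 tiles that gave 26.6 with the naive tile column. In tiles with at least 1 CpG, 46175 were higher (47.8% of these tiles) and 579 lower by 25 points or more; here fewer tiles were compared. A limit of 10 points gave 5000 lower tiles, and one of 50 points gave 67287 higher and 204 lower. X minus autosomes was 1.62 points with each window counting once and 2.99 points with naive 5mC, again with liver as total methylation. The main value was 4.14 points, and the cause was not tested. No paired analysis was possible because each group has 1 pooled column with no replicate numbers, and leaving out single libraries was not run for the same reason. Depth is unknown, so single tiles at 0 or 100% are the least certain values.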
